A study of Drosophila melanogaster with 9 samples.

Results

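The genes described here are 10 genes of the ecdysone pathway of Drosophila melanogaster: the receptor genes EcR and usp, and the response genes Eip75B, Eip74EF, br, Hr3, Hr4, Eip78C, Hr39 and ftz-f1. They were found by their FlyBase symbols among the 17611 gene IDs of the deposited count files, and all 10 were present. Polyadenylated RNA of whole larvae of the first instar was counted in 3 groups of 3 libraries each. The roX-KO males carry the genotype roX1[ex6] roX2[9-4] and are labelled a double knockout of roX1 and roX2. These are the noncoding RNAs of the complex that raises transcription of the male X. The other groups are wild-type females and wild-type males. The study compared roX-KO males with wild-type males to learn what the roX RNAs do in transcription.

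The labels give the stage but not the hours since hatching, and they name neither the wild-type stock nor any separate culture or animal behind a replicate. Age, stock and genotype therefore cannot be told apart in these groups, and p-values measure only the spread between libraries, which may be technical. The protocol text of the female samples also names males, and the deposited table of fold changes covers the male libraries alone. Sex and preparation cannot be told apart in the comparisons with females. Whole larvae were sequenced in bulk, so fewer cells of a type and less RNA per cell cannot be told apart either.

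Ecdysone is the steroid hormone that times the moults and the metamorphosis of insects. Its active form binds a heterodimer of the nuclear receptors EcR and Ultraspiracle (usp), which switches on early genes encoding transcription factors, and these act on later genes, among them nuclear receptors such as Hr3, Hr4 and ftz-f1. In flies the early genes follow the rise of a hormone pulse, Hr3 and its relatives follow them, and ftz-f1 comes up after the hormone has fallen, so the levels of these genes are used as a clock within a moulting cycle.

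Counts in genes came to between 17318293 and 18020359 per library. The roX counts fitted the labels: roX1 had 52 to 68 counts in roX-KO males, 314 to 440 in females and 4964 to 6002 in wild-type males, and roX2 had 0 in each roX-KO library, 3 to 6 in females and 150 to 181 in wild-type males. A gene was called higher or lower where edgeR's quasi-likelihood test, adjusted by Benjamini and Hochberg over all genes tested, gave a p under 0.05. Of 11172 genes tested in roX-KO males relative to wild-type males, 63.5% were called. The share was 22% of 11104 genes in females relative to wild-type males and 27.2% of 11173 genes in roX-KO males against females. Scaling by total counts in place of TMM added 0.23 to the median log2 fold change between the male groups, with 5467 genes higher and 2395 lower in roX-KO males where TMM gave 3505 and 3588. Against females it added 0.21, with 1775 higher and 1311 lower where TMM gave 1193 and 1851. Fold changes below are relative to TMM scaling. Female library 3 stood apart from the other female libraries. Its level was the lowest of the females for 9 of the 10 genes, br being the exception, at 0.530 of the mean of females 1 and 2 for Eip75B and 0.904 of it for br. Wild-type male 2 was the lowest of its group for 6 of the 10 genes. Results with females are given with and without female 3.

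All 10 genes passed the filter on low counts in each comparison. In roX-KO males relative to wild-type males 6 of the 10 genes rose and 3 fell, where 31.4% of all genes tested were called higher and 32.1% lower. The genes that rose were Hr3, Hr4, Eip75B, Hr39, br and Eip78C, and those that fell were Eip74EF, ftz-f1 and usp. EcR did not pass the test. The groups did not overlap for the same 9 genes, with 6 higher and 3 lower, and 69.5% of all genes tested did not overlap (35.2% higher and 34.2% lower). The median log2 fold change of the 10 genes was 0.48, beside 0.02 for all genes tested. Of the 10 genes 3 rose in females relative to wild-type males, namely Hr3, Eip78C and br, where 10.8% of all genes were called higher. None fell, either at an unadjusted p under 0.05 (0 of 10) or by DESeq2 (0 of 10), and 11.2% of all genes were called lower. Without female 3 the count was 7 higher and 0 lower, where 2927 of all genes were called higher and 2924 lower. The same 3 genes did not overlap between these groups, all of them higher, beside 41.8% of all genes (21% higher and 20.8% lower). In roX-KO males against females 1 gene rose (Hr3) and 3 fell (ftz-f1, Eip74EF and Eip78C), where 10.7% of all genes were called higher and 16.6% lower. Without female 3 these counts were 4 and 4, where 3384 of all genes were called higher and 3566 lower. Here 4 genes did not overlap and were higher (Hr3, Hr4, Eip75B and Hr39) and 3 were lower, beside 54.9% of all genes (28.5% higher and 26.4% lower).

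**Figure D1:**
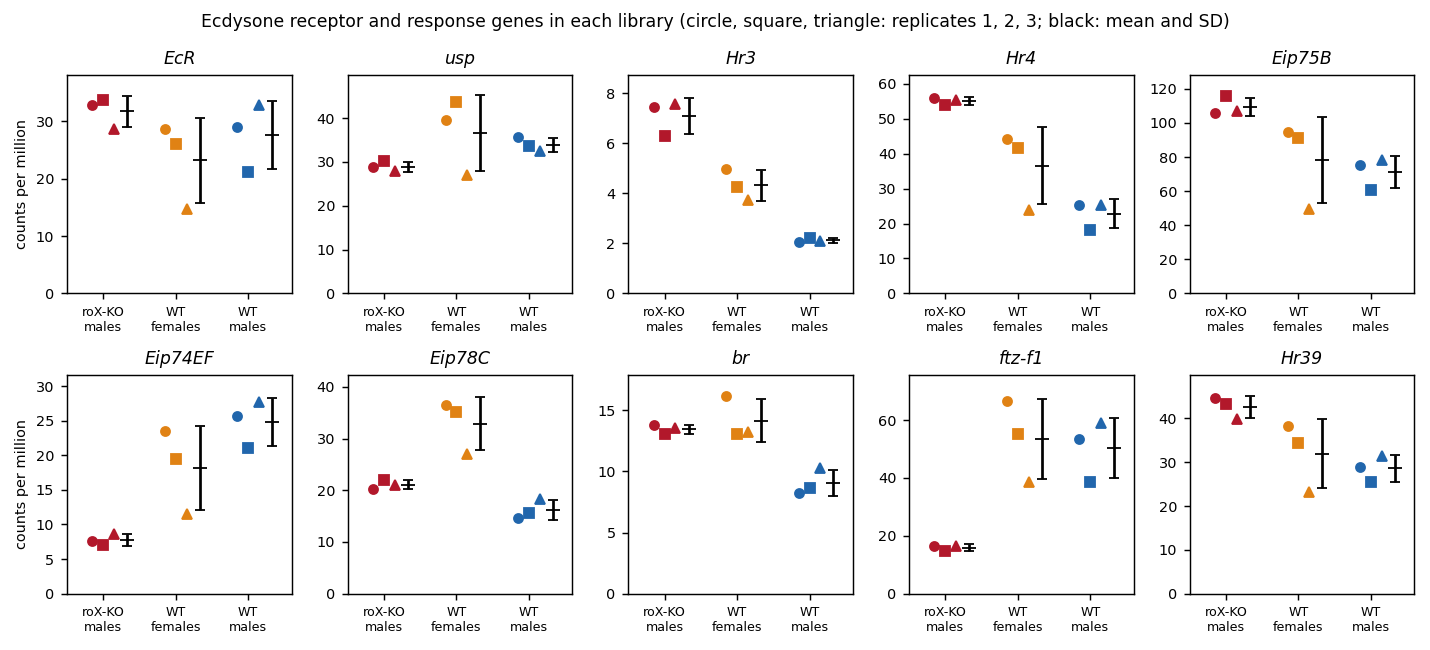
Level of each gene in CPM (vertical axis, counts scaled to a common library total, starting at 0) in each of the 9 libraries, with the mean and SD of each group of 3 in black. For ftz-f1 and Eip74EF the 3 roX-KO libraries sit below the 3 wild-type male libraries, for Hr3 and Hr4 they sit above them, and female library 3 (triangle) is the lowest female in 9 of 10 panels.

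The receptor genes had the smallest fold changes of the 10 in roX-KO males relative to wild-type males. EcR (FBgn0000546, 2R, 6087873 to 6169087, minus strand) encodes the ecdysone-binding nuclear receptor, and its exons make 6 annotated transcripts. Positions are on dm6, levels are given in CPM, counts scaled to a common library total, and a number in parentheses after a log2 fold change is edgeR's adjusted p. EcR had 32.8, 33.7 and 28.7 CPM in roX-KO males, 28.8, 26.0 and 14.8 CPM in females and 29.0, 21.1 and 32.8 CPM in wild-type males. The 3 groups overlapped, with female 3 the lowest library and wild-type male 2 the next. The log2 fold change was 0.20 ± 0.13 (SE, n = 3 per group) in roX-KO males relative to wild-type males (edgeR adjusted p = 0.212), -0.25 ± 0.28 in females relative to wild-type males (0.590) and 0.44 ± 0.25 in roX-KO males against females (0.233). Without wild-type male 3 the difference between the male groups was 0.32 and passed the test (edgeR adjusted p = 0.0423), and with libraries scaled by total counts it was 0.43 (0.0126). Leaving out wild-type male 2, the lowest of its group, brought the difference down to 0.035 ± 0.082 (edgeR adjusted p = 0.718). Without female 3 EcR differed by -0.013 ± 0.16 in females relative to wild-type males (0.955) and by 0.19 ± 0.081 in roX-KO males against females (0.0544).

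Ultraspiracle, the partner that EcR needs to bind DNA, is encoded by usp on the X (FBgn0003964, X, 2038798 to 2042311, minus strand). For usp the libraries held 28.7, 30.1 and 27.9 CPM in roX-KO males, 39.5, 43.5 and 27.0 CPM in females and 35.7, 33.6 and 32.5 CPM in wild-type males. All 3 roX-KO libraries lay below all 3 wild-type male libraries, by a small margin, while the females spanned both. The log2 fold change of usp in roX-KO males relative to wild-type males was -0.23 ± 0.077 (edgeR adjusted p = 0.0188). That call was lost without wild-type male 1, roX-KO male 1 or roX-KO male 3 (edgeR adjusted p = 0.0674, 0.0717 and 0.0850), and also with all 9 libraries in 1 fit (0.290) and with total counts, where the difference was -0.0011 (0.991). Against females usp differed by -0.36 ± 0.19 in roX-KO males (0.211), and without female 3 by -0.54 ± 0.07 (edgeR adjusted p = 5.05e-06). The difference between females and wild-type males was 0.11 ± 0.19 (0.723), and 0.29 ± 0.092 without female 3 (0.0222). Exons of neighbouring genes cover 8.72% of the exon length of usp on the same strand.

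The early genes went in different directions in roX-KO males: Eip75B and br rose, and Eip74EF fell. Eip74EF (FBgn0000567, 3L, 17558672 to 17619325, minus strand) encodes ETS-domain transcription factors. It had 152, 132 and 173 counts in roX-KO males, 436, 355 and 174 in females and 438, 350 and 462 in wild-type males. The levels were 7.66, 7.02 and 8.66 CPM in roX-KO males, 23.6, 19.4 and 11.6 CPM in females and 25.6, 21.1 and 27.7 CPM in wild-type males. The roX-KO libraries were the 3 lowest of the 9, and female 3 lay between them and all the other libraries. Relative to wild-type males Eip74EF fell by 1.67 ± 0.12 on the log2 scale in roX-KO males (edgeR adjusted p = 1.57e-07), and wild-type males held 3.19-fold more of it. Against females it fell by 1.24 ± 0.27 (edgeR adjusted p = 0.0156), a call that was lost without any 1 of roX-KO males 1, 2 and 3 (0.0690, 0.0764 and 0.0548) and with total counts (0.0561). Without female 3 it fell by 1.49 ± 0.11 (edgeR adjusted p = 8.47e-09). Females and wild-type males differed in Eip74EF by -0.44 ± 0.27 (0.294), and by -0.21 ± 0.13 without female 3 (0.226).

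Eip75B (FBgn0000568, 3L, 17950953 to 18064696, minus strand), a nuclear receptor that in flies can bind Hr3 and block its activity, had 106, 116 and 107 CPM in roX-KO males, 94.7, 91.3 and 49.3 CPM in females and 75.1, 60.5 and 78.0 CPM in wild-type males. Every roX-KO library was above every library of the other groups, and female 3 was the lowest of the 9. Eip75B rose by a log2 fold change of 0.62 ± 0.094 in roX-KO males relative to wild-type males (edgeR adjusted p = 0.000103). It differed by 0.46 ± 0.26 against females (0.214), and by 0.21 ± 0.056 without female 3 (0.00363). For females relative to wild-type males the log2 fold change was 0.14 ± 0.26 (0.751), and 0.39 ± 0.11 without female 3 (edgeR adjusted p = 0.0149). The call between the male groups was lost when all 9 libraries shared 1 fit (edgeR adjusted p = 0.0542).

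The third early gene, br, lies on the X (FBgn0283451, X, 1575132 to 1664869, plus strand) and encodes the Broad zinc-finger factors, through 16 annotated transcripts from 9 start sites. It had 13.8, 13.0 and 13.6 CPM in roX-KO males, 16.2, 13.1 and 13.2 CPM in females and 8.24, 8.66 and 10.3 CPM in wild-type males. All roX-KO and all female libraries were above all wild-type male libraries, and the roX-KO males and females overlapped. The log2 fold change was 0.57 ± 0.10 in roX-KO males (edgeR adjusted p = 0.000448) and 0.65 ± 0.16 in females (0.0281), each relative to wild-type males, whose libraries both comparisons share. The female call was lost without wild-type male 1, 2 or 3 (edgeR adjusted p = 0.133, 0.115 and 0.0723) and without female 1 or 2 (0.102 and 0.0649). roX-KO males against females differed in br by -0.085 ± 0.14 (0.672). Without female 3 these values were 0.69 ± 0.14 in females relative to wild-type males (0.00216) and -0.14 ± 0.10 in roX-KO males against females (0.241). Counts per gene do not separate the isoforms of br, nor those of EcR, Eip75B, Eip74EF and ftz-f1, whose transcripts also start at more than 1 site.

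Hr3 and Hr4, nuclear receptors of the early-late class, had the largest rises of the 10 in roX-KO males. Hr3 (FBgn0000448, 2R, 10203995 to 10237348, minus strand) activates ftz-f1 at the onset of fly metamorphosis. It was counted 148, 118 and 151 times in roX-KO males, 92, 78 and 56 times in females and 35, 37 and 35 times in wild-type males. Those counts correspond to 7.46, 6.27 and 7.56 CPM in roX-KO males, 4.97, 4.26 and 3.72 CPM in females and 2.05, 2.23 and 2.10 CPM in wild-type males. The 3 groups did not overlap, with roX-KO males highest, females between and wild-type males lowest. Hr3 rose by a log2 fold change of 1.74 ± 0.15, or 3.33-fold, in roX-KO males relative to wild-type males (edgeR adjusted p = 5.74e-07). In females relative to wild-type males it rose by 1.03 ± 0.18 (edgeR adjusted p = 0.00820), a call lost without wild-type male 1 or 3 (0.0520 and 0.0529). Between roX-KO males and females the rise was 0.70 ± 0.17 (edgeR adjusted p = 0.0233), lost without any 1 of roX-KO males 1, 2 and 3 (0.105, 0.0511 and 0.102) or without female 2 (0.0689). Without female 3 Hr3 rose by 1.12 ± 0.17 in females relative to wild-type males (0.000401) and by 0.60 ± 0.14 in roX-KO males against females (0.00162). Exons of other genes on the same strand cover 82.7% of the exon length of Hr3. These are CG12912 and CG46321, with 0 counts in all 9 libraries, and lncRNA:CR46322, with 2, 9 and 9 counts in roX-KO males, 15, 10 and 1 in females and 0, 1 and 1 in wild-type males. Reads in the shared exons may have gone uncounted, so the level of Hr3 is uncertain.

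Hr4 (FBgn0264562, X, 1941940 to 2007956, plus strand), an X-linked nuclear receptor that limits early gene activity in fly prepupae, had 56.0, 53.9 and 55.3 CPM in roX-KO males, 44.3, 41.7 and 23.8 CPM in females and 25.2, 18.1 and 25.3 CPM in wild-type males. The roX-KO libraries were the 3 highest and lay close together, while female 3 fell within the range of wild-type males. Hr4 rose by a log2 fold change of 1.27 ± 0.11, or 2.41-fold, in roX-KO males relative to wild-type males (edgeR adjusted p = 8.82e-07). Against females the difference was 0.57 ± 0.24 (0.120), and 0.33 ± 0.06 without female 3 (edgeR adjusted p = 0.000151). Females relative to wild-type males differed by 0.68 ± 0.27 (0.120). Without female 3 Hr4 rose in females by 0.91 ± 0.14 (edgeR adjusted p = 0.000372), and with all 9 libraries in 1 fit it also passed (0.0464).

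Eip78C was highest in females, unlike Hr3 and Hr4. Eip78C (FBgn0004865, 3L, 21226609 to 21266503, plus strand), a nuclear receptor related to Eip75B, had 20.3, 22.1 and 21.0 CPM in roX-KO males, 36.4, 35.2 and 27.0 CPM in females and 14.7, 15.6 and 18.3 CPM in wild-type males. The 3 groups did not overlap, and wild-type males were lowest. In roX-KO males Eip78C rose by 0.38 ± 0.10 on the log2 scale relative to wild-type males (edgeR adjusted p = 0.00415), a call lost with all 9 libraries in 1 fit (0.0559). In females it rose by 1.02 ± 0.17 relative to wild-type males (edgeR adjusted p = 0.00658), and by 1.15 ± 0.11 without female 3 (1.83e-05). Against females Eip78C fell by 0.65 ± 0.15 in roX-KO males (edgeR adjusted p = 0.0199). That call was lost without roX-KO male 1, 2 or 3 (0.0993, 0.0731 and 0.0892), without female 1 or 2 (0.0573 and 0.0675) and with total counts (0.140). Without female 3 Eip78C fell by 0.79 ± 0.07 (edgeR adjusted p = 7.05e-08).

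Hr39 (FBgn0261239, 2L, 21237250 to 21259675, plus strand), a nuclear receptor of the same subfamily as ftz-f1, had 44.7, 43.3 and 39.9 CPM in roX-KO males, 38.3, 34.3 and 23.1 CPM in females and 29.0, 25.4 and 31.3 CPM in wild-type males. Every roX-KO library was above every other library, and female 3 was the lowest of the 9. Hr39 rose by a log2 fold change of 0.58 ± 0.09 in roX-KO males relative to wild-type males (edgeR adjusted p = 0.000129). The difference was 0.40 ± 0.20 against females (0.181) and 0.21 ± 0.072 without female 3 (edgeR adjusted p = 0.0194). Between females and wild-type males it was 0.16 ± 0.21 (0.636), and 0.35 ± 0.11 without female 3 (0.0218).

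The gene that comes up last after a pulse, ftz-f1 (FBgn0001078, 3L, 18750607 to 18801309, minus strand), encodes a nuclear receptor that in prepupae makes tissues able to answer the next pulse. It had 329, 275 and 332 counts in roX-KO males, 1229, 1011 and 584 in females and 914, 642 and 982 in wild-type males. That was 16.6, 14.6 and 16.6 CPM in roX-KO males, 66.5, 55.2 and 38.8 CPM in females and 53.4, 38.6 and 59.0 CPM in wild-type males. The 3 roX-KO libraries were the lowest of the 9, and the lowest library of the other groups was wild-type male 2. Females and wild-type males overlapped. Relative to wild-type males ftz-f1 fell by 1.66 ± 0.14 on the log2 scale in roX-KO males (edgeR adjusted p = 5.18e-07), so that wild-type males held 3.16-fold more. Against females it fell by 1.76 ± 0.22 (edgeR adjusted p = 0.00140), and without female 3 it fell by 1.95 ± 0.085 (1.91e-11). Between females and wild-type males ftz-f1 differed by 0.09 ± 0.25 (0.835), and by 0.27 ± 0.16 without female 3 (0.176). Of the exon length of ftz-f1, 29.4% is shared on the same strand with lncRNA:CR45939, which had 0 to 3 counts per library.

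**Figure D2:**
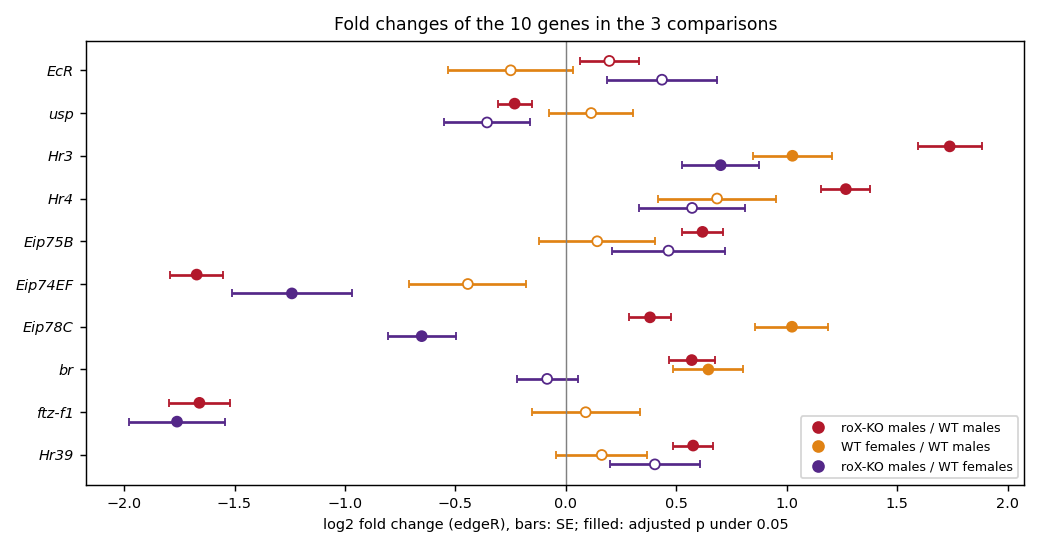
Log2 fold change of each gene (horizontal axis, with SE bars) in the 3 comparisons, filled where edgeR's adjusted p was under 0.05. In roX-KO males Hr3 lies at 1.74 and Hr4 at 1.27 relative to wild-type males, opposite ftz-f1 at -1.66 and Eip74EF at -1.67, while the fold changes of ftz-f1 and Eip74EF in females relative to wild-type males are at 0.09 and -0.44.

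The authors' deposited table for the male libraries called 9 of these 10 genes at an adjusted p under 0.05, and its log2 fold changes differed from those given here by at most 0.0081. It gave ftz-f1 a log2 fold change of -1.67 and Hr3 one of 1.73, and EcR an adjusted p of 0.262.

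Set beside each other per kilobase of exon that no other gene shares on the same strand, the genes held different places in the 3 groups. The gene usp was the highest per kilobase, at 10.4 ± 0.414 CPM per kb in roX-KO males, 13.2 ± 3.12 in females and 12.2 ± 0.582 in wild-type males (SD, n = 3 each), and br was the lowest, at 0.666 ± 0.0189 in roX-KO males, 0.700 ± 0.0867 in females and 0.448 ± 0.0528 in wild-type males. In roX-KO males ftz-f1 was 8th of the 10 at 2.63 ± 0.189 CPM per kb, whereas it was 2nd in females at 8.83 ± 2.30 and 2nd in wild-type males at 8.31 ± 1.74. Hr3 was 5th in roX-KO males at 3.92 ± 0.395 CPM per kb, 7th in females at 2.39 ± 0.348 and 9th in wild-type males at 1.17 ± 0.0509. Eip74EF was 9th in roX-KO males at 0.834 ± 0.0885, 9th in females at 1.95 ± 0.654 and 7th in wild-type males at 2.66 ± 0.366. Several neighbours in the order did not differ beyond their spread, the gap in means being smaller than the sum of the SDs. In roX-KO males these were Hr39 and Eip75B, and Hr4, Hr3, Eip78C and EcR in a row. In females they were the first 5 genes in a row (usp, ftz-f1, Hr39, Eip75B, Eip78C) and the next 4 (Hr4, Hr3, EcR, Eip74EF). In wild-type males they were Hr39 and Eip75B, and EcR, Eip78C and Eip74EF in a row. Over all annotated exon, without leaving out shared parts, Hr3 had 0.678 ± 0.0683 CPM per kb in roX-KO males, 0.413 ± 0.0602 in females and 0.203 ± 0.0088 in wild-type males, so its place rests on which exon is counted.

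A ratio of 2 genes in the same library carries no scaling factor. These ratios are descriptions, since their genes were chosen with the fold changes known. Hr4 had more counts than ftz-f1 in roX-KO males, with 3.38, 3.68 and 3.33 counts of Hr4 per count of ftz-f1, and fewer in females, with 0.667, 0.756 and 0.615, and in wild-type males, with 0.472, 0.467 and 0.429. The 3 groups did not overlap in this ratio, and female 3 and wild-type male 2 were close to the other libraries of their groups. The ratio of Hr3 to ftz-f1 was 0.450, 0.429 and 0.455 in roX-KO males, 0.0749, 0.0772 and 0.0959 in females and 0.0383, 0.0576 and 0.0356 in wild-type males, again without overlap and in the same order. The early genes also moved against each other. Eip75B had 13.8, 16.5 and 12.4 counts per count of Eip74EF in roX-KO males, 4.02, 4.71 and 4.26 in females and 2.93, 2.87 and 2.81 in wild-type males. EcR to usp gave 1.14, 1.12 and 1.03 in roX-KO males, 0.729, 0.597 and 0.549 in females and 0.813, 0.628 and 1.01 in wild-type males, and there the females and wild-type males overlapped.

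**Figure D3:**
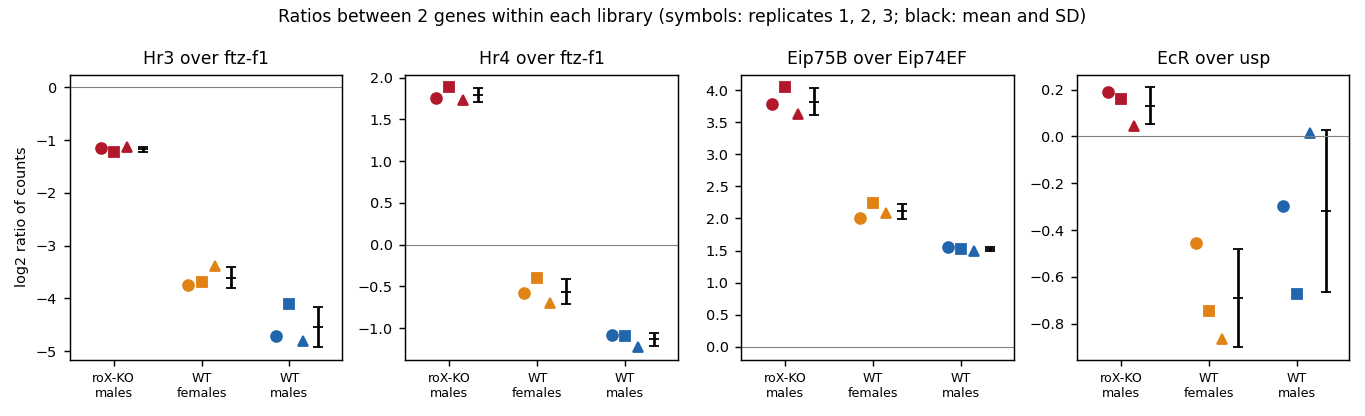
Log2 ratio of the counts of 2 genes within each library (vertical axis), with mean and SD of each group of 3 in black. The ratio of Hr4 to ftz-f1 averages 1.79 ± 0.079 in roX-KO males, -0.56 ± 0.15 in females and -1.13 ± 0.076 in wild-type males, above 0 in roX-KO males and below 0 in the other groups.

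Of the 10 genes, usp, Hr4 and br lie on the X, which had a median log2 fold change of -0.41 over 1751 genes in roX-KO males relative to wild-type males (quartiles -0.77 and -0.0079), beside 0.08 over 9286 genes of the arms of chromosomes 2 and 3. Hr4 and br rose and stood near the top of the X genes: 98.5% of X genes lay below Hr4 and 92.6% below br. The log2 fold change of usp, -0.23, lay above 62.0% of X genes. The X median in females relative to wild-type males was 0.09, with 86.9% of X genes below Hr4, 85.7% below br and 51.9% below usp. The remaining 7 genes, among them those with the largest falls, lie on chromosomes 2 and 3.

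The levels of long and short transcripts differed between libraries in a graded way, and the 10 genes are long. Their longest annotated transcripts run from 3.04 kb (usp) to 12.6 kb (Hr4), with a median of 7.08 kb beside 1.88 kb for all genes with a level. In female 3 genes with transcripts over 8 kb had a median log2 deviation of -0.58 from the female mean, and genes under 1 kb one of 0.46. Wild-type male 2 had -0.27 over 8 kb and 0.14 under 1 kb, while the roX-KO libraries stayed between -0.0237 and 0.0157 in every length class. The median fold change in roX-KO males relative to wild-type males went with length, at -0.21 under 1 kb and 0.38 over 8 kb. Within genes of like length, 99.4% lay below Hr3 and 98.0% below Hr4. Only 0.623% lay below Eip74EF and 0.686% below ftz-f1, and these 4 genes stood at the ends of their length class. Hr39 stood above 77.2%, Eip75B above 71.9%, br above 69.0% and Eip78C above 60.8% of their classes, EcR above 36.2% and usp above 29.7%. The part of transcript length in the fold changes of the 10 genes was not tested. In females relative to wild-type males 97.9% of genes of like length lay below Hr3, 97.8% below Eip78C, 96.5% below Hr4 and 95.0% below br.

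**Figure D4:**
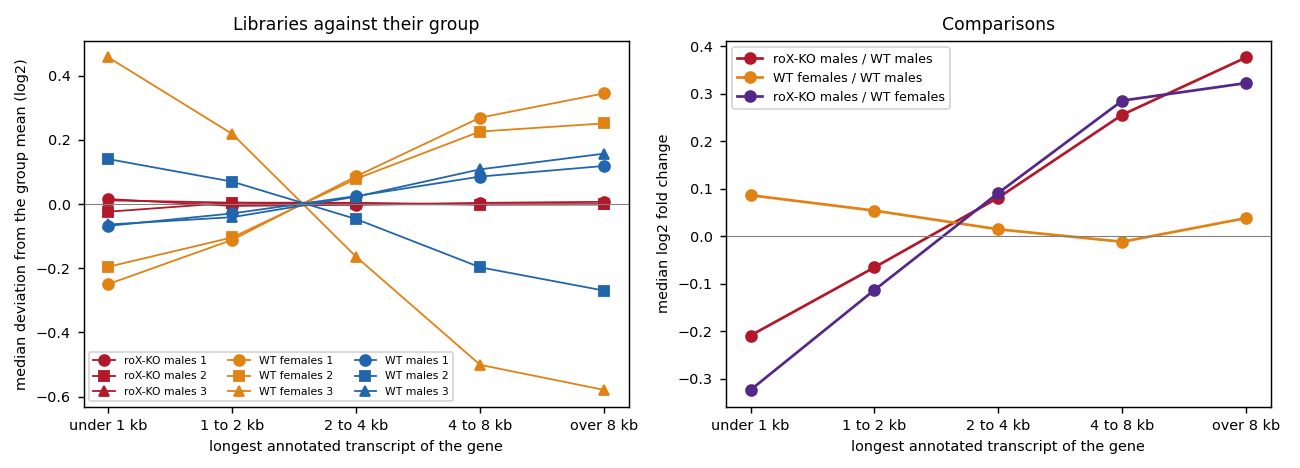
Left, median deviation of log2 CPM from the group mean (vertical axis) for genes grouped by their longest annotated transcript (horizontal axis), 1 line per library. Right, median log2 fold change of the same genes in each comparison: female 3 runs from 0.46 under 1 kb to -0.58 over 8 kb, and the 2 comparisons of roX-KO males rise with length.

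Other genes of the pathway were counted by list. Over all genes tested, 10.8% were called higher and 11.2% lower in females relative to wild-type males. In roX-KO males against females these shares were 10.7% and 16.6%. Without female 3 more genes were called, 2927 higher and 2924 lower in females relative to wild-type males. In roX-KO males against females 3384 were then higher and 3566 lower. List counts without female 3, here and below, stand beside these larger counts. Enzymes and carriers of ecdysone synthesis, transport and clearance had 6 of 18 tested genes higher and 3 lower in roX-KO males relative to wild-type males, with a median log2 fold change of 0.24, where 31.4% of all genes were called higher and 32.1% lower, so both counts are near the shares over all genes or below them. Cyp18a1, the enzyme that inactivates ecdysone, had 38.1 ± 2.69 CPM in roX-KO males, 51.5 ± 2.0 in females and 75.9 ± 0.238 in wild-type males. It fell by 0.99 ± 0.077 on the log2 scale in roX-KO males relative to wild-type males (edgeR adjusted p = 2.74e-07). It also fell by 0.45 ± 0.12 in roX-KO males against females, and in females it fell by 0.56 ± 0.11 relative to wild-type males. Cyp18a1 lies on the X. The synthesis gene spok rose in roX-KO males by 0.82 ± 0.12 relative to wild-type males and by 0.70 ± 0.15 against females. The X-linked synthesis gene phtm (phantom) fell by 0.67 ± 0.13 relative to wild-type males. Oatp74D, the importer that carries ecdysone into cells, rose in females relative to wild-type males by 0.78 ± 0.21. In that comparison 1 gene of 18 was higher and 1 lower, and without female 3 there were 4 and 3. In roX-KO males against females it was 1 and 1, and without female 3 there were 4 and 5.

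Coregulators of EcR had 3 of 7 genes higher and 1 lower in roX-KO males relative to wild-type males, a small list in a comparison that called 63.5% of all genes. The histone demethylase gene Utx rose by 0.83 ± 0.10 and the coactivator gene tai by 0.39 ± 0.10, and the corepressor gene Smr, on the X, fell by 0.31 ± 0.10. None passed in females relative to wild-type males (0 by DESeq2, 1 of 7 at an unadjusted p under 0.05), where 2 were higher and 1 lower without female 3. In roX-KO males against females rig rose by 0.49 ± 0.15 and dre4 by 0.41 ± 0.12, the only 2 to pass. Without female 3 there were 2 higher and 2 lower.

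Of 26 other ecdysone-responsive genes 14 were tested, and in roX-KO males relative to wild-type males 4 were higher and 4 lower, near the shares of 31.4% and 32.1% over all genes. Blimp-1, the transcriptional repressor that delays ftz-f1 in fly prepupae, had 31.8, 29.7 and 28.9 CPM in roX-KO males, 28.3, 26.5 and 15.5 CPM in females and 14.1, 12.5 and 15.7 CPM in wild-type males. All roX-KO libraries were above all wild-type male libraries, and Blimp-1 rose by 1.10 ± 0.10 (edgeR adjusted p = 9.20e-07). ImpE2 and ImpE3, named for their induction by ecdysone in imaginal discs, moved in opposite directions in roX-KO males relative to wild-type males. ImpE2 fell by 1.18 ± 0.077 in roX-KO males relative to wild-type males, fell by 2.19 ± 0.12 in them against females, and rose by 1.00 ± 0.12 in females relative to wild-type males. ImpE3 rose by 1.09 ± 0.14 in roX-KO males and by 1.92 ± 0.27 in females, each relative to wild-type males, and fell by 0.83 ± 0.22 in roX-KO males against females. ImpL1 rose by 1.41 ± 0.14 in females relative to wild-type males and fell by 1.41 ± 0.14 in roX-KO males against females. The list had 3 higher and 2 lower of 14 in females relative to wild-type males, 7 and 3 without female 3, and 0 higher and 3 lower of 13 in roX-KO males against females, where DESeq2 and an unadjusted p under 0.05 also gave 0 higher. Without female 3 that last comparison gave 2 and 5. The salivary glue genes, made at the end of larval life and counted as a check on stage, had no gene past the filter and summed to 27 counts in roX-KO males, 30 in females and 63 in wild-type males. DESeq2 called 2 of these 6 genes lower in roX-KO males relative to wild-type males.

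Other nuclear receptors had 8 of 11 tested genes higher and 0 lower in roX-KO males relative to wild-type males, beside 31.4% and 32.1% of all genes. DESeq2 called 5 higher and 0 lower, and at an unadjusted p under 0.05 there were also 0 lower. Hr38, a receptor that also pairs with usp, had 22.1, 19.9 and 20.4 CPM in roX-KO males, 3.62, 4.21 and 3.05 CPM in females and 9.12, 6.98 and 9.01 CPM in wild-type males. The 3 groups did not overlap, with females lowest. Hr38 rose in roX-KO males by 1.31 ± 0.11 relative to wild-type males (edgeR adjusted p = 6.10e-07) and by 2.50 ± 0.16 against females, and in females it fell by 1.20 ± 0.19 relative to wild-type males. The gap gene kni rose by 0.41 ± 0.15 and Hr78 by 0.31 ± 0.072 in roX-KO males relative to wild-type males. In females ERR, the receptor that switches on glycolytic genes before larval growth, rose by 0.87 ± 0.12 and kni by 0.90 ± 0.18 relative to wild-type males. In roX-KO males ERR fell by 0.60 ± 0.11 and kni fell by 0.50 ± 0.15 against females. The counts were 2 higher and 1 lower of 10 in females relative to wild-type males, and 6 and 1 without female 3. For roX-KO males against females they were 1 higher and 2 lower of 11, and 2 and 4 without female 3. Without female 3, 2927 of all genes were higher and 2924 lower in the first comparison, and 3384 and 3566 in the second.

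Juvenile hormone, the second hormone of the moult, sets whether a moult is larval. Its synthesis, clearance, receptor and response genes gave 0 of 9 tested higher and 5 lower in roX-KO males relative to wild-type males. Over all genes 31.4% were higher and 32.1% lower. In the list an unadjusted p under 0.05 also gave 0 higher, and DESeq2 called 1 higher. Of the epoxide hydrolase genes, which degrade the hormone, Jheh3 fell by 0.71 ± 0.072 and Jheh2 fell by 0.56 ± 0.072. Jheh2 also fell by 0.89 ± 0.11 in females relative to wild-type males, the only 1 of 9 to pass there, with 2 higher and 3 lower without female 3. Jheh3 fell by 0.56 ± 0.16 in roX-KO males against females, the only 1 of 9 by edgeR, where DESeq2 called 2 higher and 1 lower. Without female 3 there were 3 higher and 4 lower of 10. Of the ecdysis hormones and their receptors 1 of 8 was higher in roX-KO males relative to wild-type males and 0 lower, both below the shares over all genes. The gene called higher was the amidating enzyme gene Phm, at 0.20 ± 0.082 (edgeR adjusted p = 0.0484), and DESeq2 called 0. At an unadjusted p under 0.05 there were 2 higher and 1 lower. None of the 9 passed in the other comparisons, where an unadjusted p under 0.05 gave 1 higher in females relative to wild-type males and 3 lower in roX-KO males against females. DESeq2 called 0 in females relative to wild-type males and 1 lower in roX-KO males against females. Without female 3 there were 2 higher in females relative to wild-type males and 2 lower in roX-KO males against females.

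**Figure D5:**
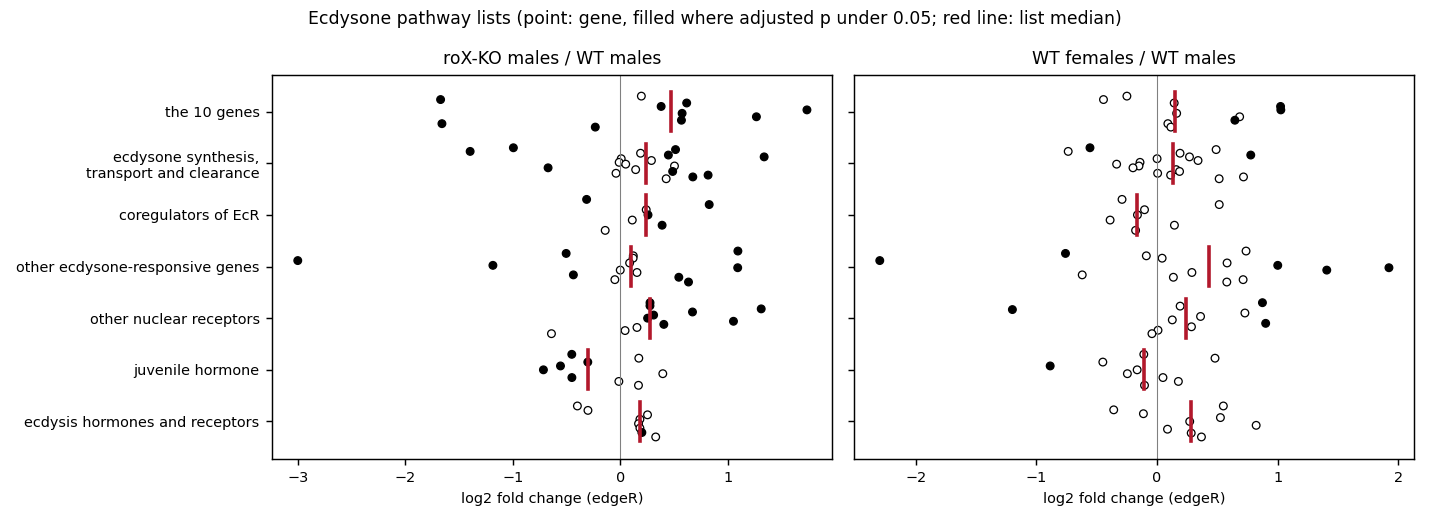
Log2 fold change of each tested gene (horizontal axis) in lists of the ecdysone pathway and its neighbours, filled where edgeR's adjusted p was under 0.05, with the median of each list as a red line. In roX-KO males relative to wild-type males (left) the 10 genes spread from -1.67 to 1.74 around a median of 0.48, and in females relative to wild-type males (right) from -0.44 to 1.03 around 0.15.

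Markers of tissues also differed between the groups. Over all genes, 31.4% were called higher and 32.1% lower in roX-KO males relative to wild-type males. These shares were 10.8% and 11.2% in females relative to wild-type males, and 10.7% and 16.6% in roX-KO males against females. Without female 3, 2927 of all genes were higher and 2924 lower in females relative to wild-type males. For roX-KO males against females these counts were 3384 and 3566. The 6 markers of the prothoracic gland, which makes ecdysone, summed to 33.5 to 36.8 CPM in roX-KO males, 25.4 to 33.3 CPM in females and 26.9 to 29.1 CPM in wild-type males, with none at 0. Of these, 2 were higher and 1 lower in roX-KO males relative to wild-type males, near or below the shares over all genes. Neuron markers had 7 of 8 higher and 1 lower in that comparison, led by onecut, Rim and brp at 1.23 ± 0.11, 1.17 ± 0.11 and 0.88 ± 0.15. They summed to 567 to 596 CPM in roX-KO males, 295 to 513 in females and 295 to 389 in wild-type males. Muscle markers had 9 of 9 lower, with sums of 24407 to 24712 CPM in roX-KO males, 42565 to 45426 in females and 48211 to 49422 in wild-type males, and fat body markers had 6 of 6 lower, with sums of 2014 to 2098 CPM in roX-KO males, 1608 to 2007 in females and 2806 to 3454 in wild-type males. These sums are mostly apolpp, the lipid carrier gene, which fell by 0.61 ± 0.093. It averaged 2053 CPM in roX-KO males, 1816 in females and 3136 in wild-type males. The median log2 fold change of the 6 was -2.52. The genes other than apolpp added little to the sums in any group, however, and were near the floor in roX-KO males. Fbp1, for example, had 4, 2 and 5 counts in roX-KO males, 8, 3 and 5 in females and 26, 32 and 20 in wild-type males. Midgut enzymes had 2 of 8 higher and 5 lower, and summed to 2901 to 3249 CPM in roX-KO males, 3323 to 6502 in females and 3207 to 4060 in wild-type males. Of the cuticle protein genes, which build the larval skin, 88 of 98 were lower and 6 higher, with a median log2 fold change of -2.80. Among them Cpr65Ea fell by 8.63 ± 0.19, to 0.344 ± 0.119 CPM in roX-KO males, beside 256 ± 82.3 in females and 138 ± 19.96 in wild-type males. The cuticle genes summed to 5372 to 5430 CPM in roX-KO males, 9152 to 15147 in females and 12534 to 15008 in wild-type males, with 9 of 121 at 0 counts in roX-KO males, 5 in females and 5 in wild-type males. In females relative to wild-type males fat body markers had 0 of 6 higher and 4 lower, with 0 higher also at an unadjusted p under 0.05 and by DESeq2, midgut enzymes had 3 of 8 higher and 0 lower, with 0 lower likewise, and the cuticle genes had 22 of 99 higher and 28 lower. There the neuron and muscle markers had 0 passing (0 and 1 at an unadjusted p under 0.05, 0 and 1 by DESeq2). Without female 3 there were 28 cuticle genes higher and 54 lower, 5 neuron markers higher, 2 muscle markers lower, 6 of 7 fat body markers lower, and 4 midgut enzymes higher and 1 lower. In roX-KO males against females 75 of 96 cuticle genes were lower and 2 higher, 7 of 9 muscle markers, 4 of 8 midgut enzymes and 1 of 4 fat body markers lower, and 1 of 8 neuron markers lower. That neuron marker was again elav, which fell by 0.71 ± 0.11 (edgeR adjusted p = 0.00365) and averaged 55.4 ± 0.128 CPM in females. Without female 3 there were 83 cuticle genes lower and 6 higher, 9 muscle markers lower, 5 midgut enzymes lower and 2 higher, 1 fat body marker lower, and 7 neuron markers higher and 1 lower. The part of tissue makeup in the fold changes of the 10 genes was not tested.

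Within groups the 10 genes moved together from library to library. Deviations from the group means correlated positively for all 45 pairs, at Pearson's r from 0.06 for usp and br to 0.98 for EcR and Hr39 over the 9 libraries. The points share their libraries and their scaling. Long transcripts as a class also deviated in female 3 and wild-type male 2, with medians of -0.58 and -0.27 over 8 kb. At 4 to 8 kb these medians were -0.50 and -0.20. No other gene pairs were set beside the 45, and the part of transcript length in their correlations was not tested. Across the 9 libraries with the groups left in, Eip75B and Hr39 correlated at 0.98, ftz-f1 and Eip74EF at 0.94, and Hr3 and Hr4 at 0.92. Hr3 ran against Eip74EF at -0.82 and against ftz-f1 at -0.72. Among 8290 genes with mean log2 CPM of at least 3, those most like Hr3 in log2 CPM over the 9 libraries were CG6184 (0.995), Pitslre (0.990), CG3257 (0.989), bwa (0.987) and TM4SF (0.986). Those most opposite to it were CG13748 (-0.997), CG5800 (-0.993), CG32750 (-0.991), Sec22 (-0.990) and Mcm6 (-0.988). The genes most like ftz-f1 were CG9008 (0.988), zye (0.988), CG10353 (0.987), CG13699 (0.986) and Gfat1 (0.984), and the most opposite were Inos (-0.991), mat (-0.989), CG2065 (-0.986), CG17571 (-0.984) and Jon66Cii (-0.984). With 3 groups of 3 libraries these values describe the pattern over groups, and no test was made of them.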

How the data were processed

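The authors deposited raw read counts per gene ID for each library, with closing lines for reads given to no gene. Trizol extraction, oligo dT selection and paired-end sequencing are described per the labels' protocols. HISAT2 2.2.1, SAMtools 1.13, HTSeq 2.0.2 and DESeq2 with dm6 are named per the submitters' processing notes. Neither the strand setting nor the gene models behind the counts are stated in the labels or files. Of all reads in a file, 45.7% to 47.9% had no feature and 1.19% to 1.36% were ambiguous, and these stayed out of all totals. A second file the authors deposited covers the male groups and holds FPKM, mean signal, log2 fold changes with errors, a test score and p-values, per the file headers, and is used only where it is named.

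Symbols, positions and lengths came from the Ensembl annotation of dm6, which matched 17556 IDs and left 55 unmatched. Each comparison was fitted on its 6 libraries with edgeR 4.0.16 (limma 3.58.1, R 4.3.3): filterByExpr (count of at least 10, total of at least 15), TMM scaling, and the robust quasi-likelihood F-test, adjusted by Benjamini and Hochberg and called under 0.05. The SE is the log2 fold change divided by the square root of F. CPM are counts scaled to TMM-adjusted totals over all 9 libraries, and correlations used log2 CPM with a prior count of 2. On simulated counts for roX-KO against wild-type males, over 11143 genes, 98% of genes changed by 1 on the log2 scale and 100% of those changed by 2 were recovered. The simulation gave every gene the same spread, and only genes above a set mean count were changed. It does not cover the comparisons with females. There edgeR's biological coefficient of variation was 0.198 relative to wild-type males and 0.189 for roX-KO males against females, beside 0.076 between the male groups. Figures were drawn with matplotlib 3.10.9, and tables with pandas 2.3.3 and NumPy 2.4.6 under Python 3.11.15.

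The 10 genes and all lists were chosen with earlier results of these data known. Other genes are named where they passed the test with a mean log2 CPM of at least 1, at most 3 per list and comparison by size of the fold change, and roX1 and roX2 as label checks. Not every gene that this rule picks is reported here. lncRNAs that share exons with Hr3 or ftz-f1 were named after their overlap was found. Alternatives were DESeq2 1.42.0, total counts, TMM over the arms of chromosomes 2 and 3, no filter, all 9 libraries in 1 fit, a replicate block, each library left out, and other lengths.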

Additional observations from a re-analysis of the deposited data

How the results depend on the processing

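Between roX-KO and wild-type males the directions of the 10 fold changes held under all alternatives, and the count of the 10 genes was 6 to 7 higher and 2 to 3 lower with each library left out, and 4 higher and 2 lower with all 9 libraries in 1 fit. All genes higher numbered 5467 with total counts, which shift the median fold change by 0.23, and 2040 with all 9 libraries in 1 fit, against 3505. Leaving out a library gave 3024 to 3675 higher and 3223 to 3828 lower.

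In females against wild-type males the 10 genes had 1 to 7 higher and 0 lower as each library was left out, and all genes 430 to 2927 higher and 616 to 2924 lower, the upper ends without female 3. Reversed there, none of them called, were ftz-f1 (-0.07 without wild-type male 2, -0.12 without female 1, 0.27 at most), Eip75B (-0.037 without female 1, -6.88e-06 without female 2, 0.39 at most), Hr39 (-0.0096 without female 1, 0.35 at most) and usp (-0.045 without female 2, 0.29 at most), the largest values without female 3. The cause was not tested.

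In roX-KO males against females the ranges were 0 to 4 higher and 1 to 4 lower for the 10 genes, and 524 to 3384 and 1014 to 3566 for all genes. Total counts left 1 of the 10 genes lower and turned br to 0.12, as did leaving out female 1 (0.027), its lowest value being -0.14 without female 3. All 9 libraries in 1 fit gave 1871 genes higher. Replicate numbers did not pair the libraries: deviations of same-numbered libraries correlated at -0.014 to -0.0068 between the male groups, -0.58 to 0.40 between females and wild-type males and 0.0083 to 0.061 between roX-KO males and females. With the replicate block 0 of the 10 genes were higher in roX-KO males against females (Hr3 adjusted p = 0.0512), and 482 genes were higher and 615 lower in females against wild-type males, where br lost its call (0.118). No other call of the 10 genes changed with the block. Lengths per kilobase moved 19 of 30 levels by over 1 SD with the longest transcript and 8 of 30 with unshared exon, the second chosen after seeing the data, as were the list counts without female 3. With 35 to 37 counts of Hr3 per wild-type male library, depth limits that gene most.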
